A study of Mus musculus with 6 samples.

Results

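The genes of the proteasome were followed in mouse colon organoids after deletion of both atypical protein kinase C genes was induced. Members were all rows whose gene symbol begins with Psm, then a letter from a to g and a digit, which took 53 of 25067 rows. Of these, 48 are proteasome genes, made up of 16 core particle genes, 5 immunoproteasome genes, 17 regulatory particle genes, 7 assembly chaperone genes and 3 genes of other activators and an inhibitor. The other 5 match by symbol alone and were kept apart. They are Psmc3ip and Psme3ip1, whose proteins are named for their binding to a proteasome protein, Psme2b, and the pseudogenes Psma5-ps and Psmb6-ps2.

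All 6 organoid cultures came from crypts of 8-week-old C57BL/6 mice carrying floxed Prkci and Prkcz (Prkci f/f Prkcz f/f) and Villin-CreERT2, a tamoxifen-activated Cre recombinase driven by the epithelial Villin promoter, and were grown with B27, WNT3A, EGF, Noggin and R-spondin 1. At passage, 3 received ethanol vehicle and 3 received 4-OH tamoxifen (4-OHT), and RNA was taken 3 days later. The vehicle libraries, described by the submitters as wild type, therefore also carried the floxed alleles and the Cre, and with no tamoxifen-treated line lacking either, loss of the kinases, Cre activity and tamoxifen itself cannot be told apart. The labels do not say whether the 3 libraries of a group came from separate mice or cultures, so p-values measure the spread between these libraries, which may be technical.

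The proteasome is the protease that degrades ubiquitin-tagged proteins. Its barrel-shaped core particle has outer alpha rings, which gate entry, and inner beta rings, which hold the proteolytic sites in Psmb5, Psmb6 and Psmb7. The regulatory particle caps the barrel: its lid removes ubiquitin, and its base, a ring of ATPases with ubiquitin receptors, unfolds the substrate and feeds it in. Under interferon gamma many cells replace the catalytic subunits with Psmb8, Psmb9 and Psmb10 and make the PA28 cap from Psme1 and Psme2, a form that favours peptides for MHC class I. Transcription factors of the Nfe2l family raise subunit genes together when proteasome activity is short.

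The libraries held 15804709 to 26957612 reads, and the values below are deposited normalized counts. The targeted Prkcz fell from 912 ± 37.9 to 281 ± 13.6 (SD, n = 3; log2 fold change −1.70) and Prkci from 3520 ± 86.9 to 3021 ± 132 (−0.22), and the counts do not show which exons the reads cover. Of 9 markers of colonic epithelium, Epcam, Cdh1, Vil1, Krt8, Krt18 and Car1 rose and Cdx2 fell, and the 9 together took 13658 to 14025 RPM (reads of a library scaled to a total of 1000000) in vehicle and 17614 to 18826 in 4-OHT libraries. All 10 proliferation markers fell, with a summed level of 2153 to 2299 RPM in vehicle and 1156 to 1322 after 4-OHT. The 4-OHT replicates 2 and 3 stood apart in 6 Paneth and ileal genes, at 29.6 and 31.2 RPM against 2.65 in 4-OHT replicate 1 and 2.99 to 4.27 in vehicle, and in 3 plasma cell genes, at 10.4 and 3.52 against 0.052 and 0. Fibroblast genes reached 9.71 RPM in 4-OHT replicate 3 against at most 1.08 in the other libraries, and smooth muscle genes reached 2.30 and 4.94 RPM in 4-OHT replicates 2 and 3 against at most 0.26. The part of these changes in the results below was not tested, and in bulk RNA fewer cells of a type and less RNA per cell cannot be told apart.

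The proteasome genes moved by different amounts and in both directions. The largest rise was that of Psmd8, a lid subunit, and the largest fall that of Psmb9, an inducible catalytic subunit, while most subunit genes lay within a narrow band just above no change. Of 50 members whose normalized counts averaged 10 or more, 14 were higher and 3 lower after 4-OHT in limma (adjusted p under 0.05), against 22.7% of the 13210 tested genes called higher and 21.0% called lower. Their median log2 fold change was 0.10, with 36 values above 0 and 14 below, beside −0.01 for all tested genes. With the libraries scaled to RPM in place of the deposited factors, 4 members were higher and 4 lower. Of the 13210 tested genes 2218 were then higher and 3789 lower, and the share of calls that were rises went from 52.0% to 36.9%. The 3 untested members were Psma8, the alpha subunit of the testis, Psmb11, the catalytic subunit of the thymic cortex, and Psmb6-ps2, each at no more than 2 reads in any library.

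The members' counts have to be read against abundance. Among the 4434 genes with a mean of at least 1000, a limit set after the values were seen, 36.1% were called higher and 23.3% lower, with a median of 0.04. Of the 37 proteasome genes there, 12 were higher and 1 lower, with a median of 0.10. The share of rises was thus near that of other abundant genes and the share of falls was below it. All proteasome genes together took 0.576% ± 0.0182 of the reads in vehicle and 0.590% ± 0.0086 in 4-OHT libraries (SD, n = 3), ranges of 0.566% to 0.597% and 0.580% to 0.596% that overlapped.

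**Figure D1:**
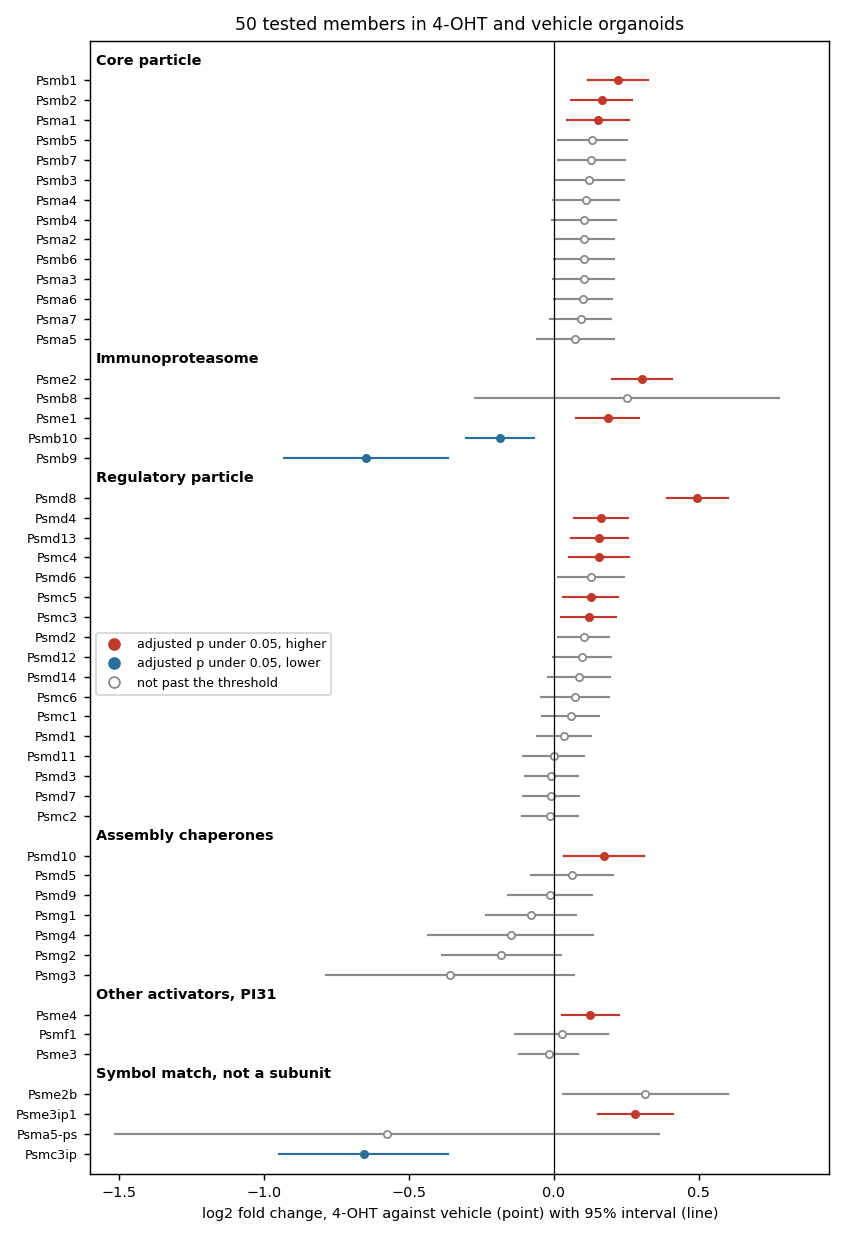
Log2 fold change of normalized counts, 4-OHT against vehicle (x axis), of the 50 tested members grouped by role (y axis), with points for the estimate and lines for the 95% interval from limma; filled points passed the threshold. All 14 core genes lie between 0.07 and 0.22, while Psmb9 at −0.65 and Psmd8 at 0.49 lie outside that band.

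The sequences upstream of 4 members with unlike changes are given, and whether they bear on those changes was not tested. Psmb9 had the largest fall of a subunit gene and Psmd8 the largest rise. Psme1 is an interferon-inducible gene that rose, and Psmb5 a constitutive catalytic gene that did not pass. Each sequence runs from 250 bases before to 30 bases after the RefSeq start, 5′ to 3′. The build is GRCm38.p6, which is not the build named for the deposited counts. Capitals mark matches on either strand to TGACNNNGC (core of the antioxidant response element read by Nfe2l factors), GAAANNGAA (core of the interferon-stimulated response element), TTCNNNGAA (gamma-activated site, named for interferon gamma) or CCAAT (read by NF-Y).
Psmb9 (chr17:34187301-34187580, minus strand): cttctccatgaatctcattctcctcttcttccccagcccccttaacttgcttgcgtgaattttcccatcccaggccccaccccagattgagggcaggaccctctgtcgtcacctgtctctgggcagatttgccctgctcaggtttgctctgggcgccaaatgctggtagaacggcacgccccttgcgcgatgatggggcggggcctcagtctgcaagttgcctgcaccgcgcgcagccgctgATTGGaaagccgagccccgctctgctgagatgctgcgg
Psmd8 (chr7:29180644-29180923, minus strand): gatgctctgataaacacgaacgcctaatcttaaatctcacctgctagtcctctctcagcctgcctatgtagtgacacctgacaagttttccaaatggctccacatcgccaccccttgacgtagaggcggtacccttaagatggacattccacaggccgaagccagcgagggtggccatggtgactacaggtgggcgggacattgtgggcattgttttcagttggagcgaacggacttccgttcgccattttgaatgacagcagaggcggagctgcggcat
Psme1 (chr14:55578244-55578523, plus strand): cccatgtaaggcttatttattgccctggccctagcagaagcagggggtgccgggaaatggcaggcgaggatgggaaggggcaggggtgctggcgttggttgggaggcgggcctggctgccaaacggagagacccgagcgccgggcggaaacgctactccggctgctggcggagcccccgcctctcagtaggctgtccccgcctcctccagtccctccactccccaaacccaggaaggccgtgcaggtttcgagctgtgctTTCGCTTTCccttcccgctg
Psmb5 (chr14:54617966-54618245, minus strand): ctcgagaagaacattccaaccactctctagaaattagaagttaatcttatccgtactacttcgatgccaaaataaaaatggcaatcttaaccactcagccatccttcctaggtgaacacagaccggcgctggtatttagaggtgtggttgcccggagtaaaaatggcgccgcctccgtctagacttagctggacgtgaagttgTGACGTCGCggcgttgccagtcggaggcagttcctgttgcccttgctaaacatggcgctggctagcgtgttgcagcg

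The Psmb9 sequence held a CCAAT match on the minus strand, Psme1 an interferon-stimulated match on the minus strand just after the start, Psmb5 an antioxidant response match, and Psmd8 none. Windows of 300 bases were searched for the 40 proteasome genes with such an entry and for 27025 genes in all, and the palindromic TTCNNNGAA can overlap GAAANNGAA. The antioxidant response core stood in 15.0% of proteasome promoters and 14.0% of all, the interferon-stimulated core in 17.5% and 9.76%, the gamma-activated site in 7.5% and 9.55%, and CCAAT in 35.0% and 41.1%. Among the 5 immunoproteasome genes Psme1 alone held the interferon-stimulated core and Psmb8 alone the gamma-activated site. These matches describe letters in a window and nothing about a factor's binding.

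The immunoproteasome genes moved in both directions. The inducible catalytic subunits Psmb9 and Psmb10 fell, and both PA28 genes, Psme1 and Psme2, rose. Psmb8, the third inducible catalytic gene, had a value above 0 that did not pass the threshold. Of the 5 genes, 2 were therefore higher and 2 lower, beside 22.7% and 21.0% of all tested genes.

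Psmb9 replaces Psmb6 in the immunoproteasome. Its normalized counts were 166, 163 and 167 in vehicle and 96.1, 102 and 120 in 4-OHT libraries. The groups did not overlap, and every 4-OHT value lay well under the narrow vehicle range. The mean fell from 165 ± 2.03 to 106 ± 12.3 (SD, n = 3), 36.1% lower, which is −0.65 ± 0.14 (SE) on the log2 scale (limma adjusted p = 6.3e-04). The Paneth, ileal and plasma cell reads of 4-OHT replicates 2 and 3 stood apart. Without those libraries the change was −0.78, an estimate that rests on 4-OHT replicate 1 alone.

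Psmb10 replaces Psmb7. It gave 1243, 1271 and 1326 in vehicle and 1134, 1096 and 1144 in 4-OHT libraries, again without overlap. The fall was small, 12.1% of the mean (log2 fold change −0.19 ± 0.056, SE; limma adjusted p = 0.010).

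Psmb8 replaces Psmb5 and was the least abundant of the inducible genes. Its values of 55.0, 28.4 and 44.8 in vehicle and 47.5, 43.5 and 58.1 in 4-OHT libraries overlapped. The log2 fold change was 0.25, with a 95% interval of −0.27 to 0.78 (limma adjusted p = 0.44). A fall as large as that of Psmb9 lay outside the interval. Inside it lay a fall as large as that of Psmb10 (−0.19) and a rise of moderate size. The Psmb8 values rest on 37 to 59 reads per library, and 14.7% of the exonic bases of Psmb8 overlap Gm20496 on the other strand.

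Psme1 encodes the alpha subunit of the PA28 cap. It gave 1645, 1764 and 1817 in vehicle and 1969, 1996 and 1974 in 4-OHT libraries, with the 4-OHT values close together and all higher (log2 fold change 0.19 ± 0.052, SE; limma adjusted p = 0.0066). The call was lost without vehicle replicate 1, where the change was 0.14, with scaling to RPM, where it was 0.11, and without 4-OHT replicates 2 and 3, where it was 0.18.

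Psme2 encodes the beta subunit of that cap. It rose from 1967, 1835 and 1965 to 2435, 2336 and 2340, a gain of 23.3% with no overlap (log2 fold change 0.30 ± 0.050, SE; limma adjusted p = 5.5e-05). Its copy Psme2b shares 68.7% of its 50-base stretches with Psme2, and 28.3% of those of Psme2 are shared in turn, so how reads were split between them is uncertain. Psme2b itself stood at 128 ± 18.9 in vehicle and 159 ± 7.8 in 4-OHT libraries and did not pass (log2 fold change 0.31, limma adjusted p = 0.070).

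**Figure D2:**
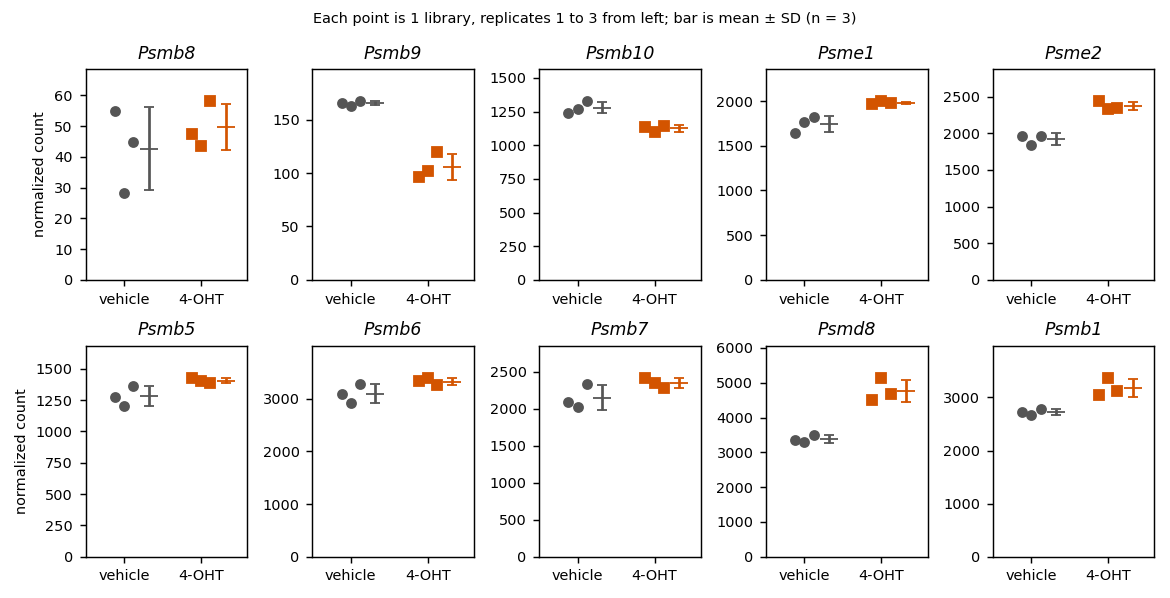
Normalized counts (y axis, from 0) of 10 members in each of 3 vehicle (grey circles) and 3 4-OHT (orange squares) libraries, with mean ± SD beside the points. Psmb9 and Psmb10 are lower in every 4-OHT library, Psme1, Psme2, Psmd8 and Psmb1 are higher in every 4-OHT library, Psmb6, Psmb7 and Psmb8 overlap, and Psmb5 separates by a small gap.

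In these organoids the inducible catalytic genes were expressed below their constitutive counterparts, by very different margins. Per kilobase of transcript, Psmb8 stood at 26.3 normalized counts in vehicle against 1685 for Psmb5, Psmb9 at 122 against 3882 for Psmb6, and Psmb10 at 976 against 1854 for Psmb7. Ratios of this kind within a library do not depend on the scaling between libraries.

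Psmb9 was 3.18%, 3.29% and 3.00% of Psmb6 per length in vehicle and 1.70%, 1.77% and 2.17% in 4-OHT libraries, means of 3.16% ± 0.145 and 1.88% ± 0.251 (SD, n = 3). Psmb10 was 52.5%, 55.6% and 50.1% of Psmb7 in vehicle and 41.6%, 41.3% and 44.4% after 4-OHT, means of 52.8% ± 2.75 and 42.4% ± 1.69. Both ratios separated the groups completely, and the two-sided exact permutation test gave p = 0.1 for each, the smallest that 3 against 3 libraries allow. Psmb8 was 1.55% ± 0.457 of Psmb5 in vehicle and 1.66% ± 0.269 after 4-OHT, with overlapping values (exact permutation p = 0.8). Psme2 to Psme1, the partners of the PA28 ring, went from 89.5% ± 6.52 to 96.9% ± 2.81, also with overlap (exact permutation p = 0.3). Over these 4 ratios no p could pass the threshold after adjustment.

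**Figure D3:**
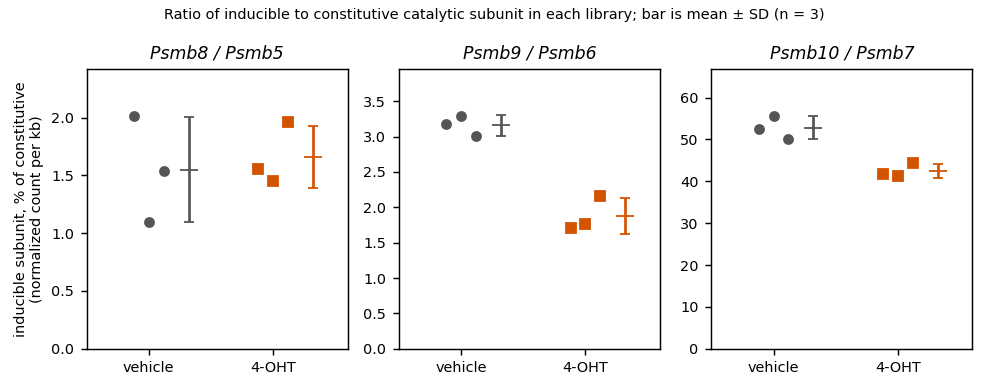
Inducible subunit as a percentage of the constitutive subunit it replaces, per kilobase of transcript (y axis, from 0), in each vehicle and 4-OHT library with mean ± SD. The Psmb9 to Psmb6 ratio goes from 3.16% to 1.88% and the Psmb10 to Psmb7 ratio from 52.8% to 42.4% without overlap, whereas the Psmb8 to Psmb5 ratio overlaps.

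Psmb9 and Psmb8 lie in the MHC region of chromosome 17 with the peptide transporter genes Tap1 and Tap2, in the order Psmb9, Tap1, Psmb8, Tap2. Tap1, the neighbour read in the opposite direction from Psmb9, stood at 286, 262 and 274 in vehicle and 257, 317 and 281 in 4-OHT libraries, which overlapped (log2 fold change 0.05, limma adjusted p = 0.71). Psmb9 counts were 60.4% ± 2.17 of those of Tap1 in vehicle and 37.3% ± 5.24 after 4-OHT, a comparison chosen after the values were seen, with every 4-OHT ratio below every vehicle ratio (exact permutation p = 0.1, the smallest possible). In the GENCODE annotation 5.79% of the exonic bases of Psmb9 overlap Tap1 on the other strand, and the strand setting of the counts is not given in the sources used here.

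Other genes of interferon signalling and peptide loading were mixed as well. Of 8 tested, 3 were higher, namely Tapbp (log2 fold change 0.57), which bridges the transporter to MHC class I, and the transcription factors Irf9 (0.39) and Irf2 (0.22). Stat2 was lower (−0.24), and Irf1, Tap1, Tap2 and Erap1 did not pass. The list median was 0.14, beside −0.01 for all tested genes, of which 22.7% were called higher and 21.0% lower. Nlrc5, the class I transactivator, had 4 to 10 reads and was not tested. Immune cells express the immunoproteasome strongly, and 11 immune markers together took 1.37 to 2.53 RPM in vehicle and 1.82 to 3.47 in 4-OHT libraries. Cd3e, Cd3g and Tyrobp had at most 1 read in any library and Ptprc at most 4, while Csf1r rose from 8.81 ± 4.12 to 20.9 ± 7.6 normalized counts. The part of these reads in the immunoproteasome values was not tested.

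The constitutive core particle genes all had values above 0, but few passed the test. Of 14 tested, 3 were higher (Psmb1, Psmb2 and Psma1) and none lower in limma, with the same counts from edgeR and DESeq2. Over all tested genes limma called 22.7% higher and 21.0% lower. An unadjusted p under 0.05 was found for 8 genes in limma, all higher. In either direction it was found for 6651 of all 13210 tested genes and for 2906 of the 4434 with a mean of at least 1000. Their log2 fold changes spanned only 0.07 to 0.22 with a median of 0.11, a band of 5.6% to 16.6% in the means. Values above 0 were found for 6503 of the 13210 tested genes and 2524 of the 4434 abundant ones. All 14 core genes also stayed above 0 with TMM factors, quantile normalization and RPM, where the lowest were 0.071, 0.024 and 0.00066. Quantile normalization took the median to 0.06 and RPM to 0.03, where the median of all genes was −0.08.

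Psmb1, a beta subunit without a proteolytic site, rose most in the core. It gave 2718, 2664 and 2786 in vehicle and 3042, 3358 and 3124 in 4-OHT libraries, with no overlap (log2 fold change 0.22 ± 0.049, SE; limma adjusted p = 0.0011). Psmb2, also without a proteolytic site, rose from 1819, 1870 and 1966 to 2069, 2137 and 2129 (0.16 ± 0.050, adjusted p = 0.012). The third, the alpha ring gene Psma1, rose by 0.15 and its groups overlapped slightly, with 3290 in vehicle replicate 3 and 3273 in 4-OHT replicate 3. Psma1 passed in 10 of 17 alternatives.

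None of the 3 constitutive catalytic genes passed in limma, edgeR or DESeq2, and their unadjusted p was under 0.05 for 3 in limma and for 2 in each of the others. In limma 6651 of all 13210 tested genes had such a p. Psmb5, the chymotrypsin-like site, had values of 1276, 1204 and 1363 in vehicle and 1424, 1402 and 1383 in 4-OHT libraries, which did not overlap (log2 fold change 0.13, 95% interval 0.013 to 0.25, limma adjusted p = 0.069). Psmb6, the caspase-like site, had values of 3085, 2925 and 3283 in vehicle and 3331, 3388 and 3257 in 4-OHT libraries, which overlapped (0.10, adjusted p = 0.098). Psmb7, the trypsin-like site, had values of 2093, 2022 and 2339 in vehicle and 2410, 2349 and 2281 in 4-OHT libraries, overlapping too (0.13, adjusted p = 0.069), and 11.8% of its exonic bases overlap Nek6 on the other strand. The upper ends of their 95% intervals in the main comparison were 0.25, 0.21 and 0.24. Without vehicle replicate 3 the log2 fold changes of Psmb5, Psmb6 and Psmb7 were 0.18, 0.15 and 0.19, and each passed.

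The number of core genes that passed changed most when vehicle replicate 3 was left out. Vehicle replicate 3 had the highest vehicle value in 14 of 14 core genes and in 39.9% of all genes with a mean of at least 1000. It was also the library with the fewest reads, and whether depth played a part was not tested. Without vehicle replicate 3, 12 core genes were called higher, with a median of 0.16, and 26 members were called in all. Without vehicle replicate 1 the counts were 1 core gene and 9 members, and without vehicle replicate 2 they were 2 and 11. Over all 13210 tested genes 5765 were called with every library. The number was 5160, 4955 and 4939 without vehicle replicate 3, 1 and 2.

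Regulatory particle genes were again mostly a little higher, with a single gene apart from the rest. Of 17 tested, 6 passed as higher and none as lower in limma, against 6 and 7 higher and none lower in edgeR and DESeq2. Among all genes with a mean of at least 1000, limma called 36.1% higher and 23.3% lower. No regulatory gene was lower at an unadjusted p under 0.05, 8 were higher, and the median log2 fold change was 0.10. Of those 4434 abundant genes 2906 had an unadjusted p under 0.05 in either direction, and their median was 0.04. Psmd8, which belongs to the lid, gave 3353, 3289 and 3504 in vehicle and 4512, 5125 and 4674 in 4-OHT libraries. The lowest 4-OHT value lay far above the highest vehicle value (log2 fold change 0.49 ± 0.051, SE; limma adjusted p = 1.6e-07), and the change stayed between 0.42 and 0.53 in all 17 alternatives. No exon of another gene overlaps Psmd8 in the GENCODE annotation.

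The next largest rise was that of Psmd4, the ubiquitin receptor of the base, from 3351, 3260 and 3412 to 3730, 3790 and 3690 without overlap (log2 fold change 0.16 ± 0.044, SE; limma adjusted p = 0.0056). The ATPases Psmc4 (0.16), Psmc5 (0.13) and Psmc3 (0.12) and the lid gene Psmd13 (0.16) also passed. Of 17 alternatives, Psmc4 and Psmd13 passed in 12 and Psmc5 in 8. Of the exonic bases of Psmd13 10.1% overlap Sirt3 on the other strand, and of those of Psmc3 8.25% overlap Slc39a13. The remaining ATPases Psmc1, Psmc2 and Psmc6 lay between −0.01 and 0.07. Psmd14, the lid enzyme that removes ubiquitin chains, had a log2 fold change of 0.09, and the scaffold Psmd2, the most abundant member, had 0.10 (limma adjusted p = 0.054), while the lid genes Psmd3, Psmd7 and Psmd11 had −0.0089, −0.011 and −0.0011. So the lid held both the largest rise of any subunit gene and 3 of the 4 regulatory genes with values below 0, each of which turned above 0 when some single libraries were left out. Under RPM Psmd8 alone of the 17 was called, and without vehicle replicate 1 or vehicle replicate 2 the count was 2 each. Over all 13210 tested genes 6007 were called under RPM, and 4955 and 4939 without vehicle replicate 1 and 2.

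Of 7 assembly chaperone genes 1 passed, as higher, and 5 had values below 0. Of all 13210 tested genes 22.7% were called higher and 21.0% lower, and 6707 had values below 0. Psmg1 to Psmg4, which build the core particle's alpha ring, had log2 fold changes of −0.08, −0.18, −0.36 and −0.15. None of these passed in limma, edgeR or DESeq2, or had an unadjusted p under 0.05 in any of them, but Psmg3 passed as lower without 4-OHT replicate 1 (−0.57, limma adjusted p = 0.029; 0.097 to 0.84 in the other alternatives) and Psmg2 passed as lower under RPM (−0.25). Psmg3, the lowest of them, was scarce at 79.6 ± 4.49 normalized counts in vehicle and 63.6 ± 18.7 in 4-OHT libraries. Of the chaperones of the base, Psmd10 (gankyrin) rose from 870.5, 792 and 840 to 934, 1004 and 887 (0.17 ± 0.066, SE; limma adjusted p = 0.039), and Psmd5 and Psmd9 did not pass at 0.06 and −0.01. The Psmd10 call was lost in 8 of 17 alternatives, which were DESeq2, no filter on low values, RPM, and the fits without vehicle replicate 2 or 3, without 4-OHT replicate 1 or 2, and without 4-OHT replicates 2 and 3 together. The class median was −0.08 over 7 genes.

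Pomp, the maturation factor that recruits beta subunits to the growing core, carries no Psm symbol and was taken from a list of other proteasome parts. It gave 1668, 1767 and 1654 in vehicle and 2356, 2426 and 2217 in 4-OHT libraries, a rise nearly as large as that of Psmd8 and without overlap (log2 fold change 0.46 ± 0.052, SE; limma adjusted p = 6.4e-07). Of the 7 tested parts 4 were higher, which besides Pomp were Txnl1 (0.17), the ubiquitin receptor Adrm1 (0.15) and the lid component Sem1 (0.14). The deubiquitinase Uchl5 (−0.22) and the adaptor Ecpas (−0.23) were lower, and Usp14 did not pass. Of all tested genes 22.7% were called higher and 21.0% lower.

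Of the other activators, Psme4, the PA200 cap, rose from 3186, 3464 and 3203 to 3593, 3526 and 3622 (log2 fold change 0.13 ± 0.047, SE; limma adjusted p = 0.036). That call was lost in 10 of 17 alternatives. Psme3, the nuclear PA28 gamma, and Psmf1, the inhibitor PI31, had log2 fold changes of −0.02 and 0.03 with overlapping groups.

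Among the symbol matches, Psmc3ip, a factor of meiotic recombination and not a subunit, fell from 148, 150 and 149 to 85.7, 104 and 94.5 (log2 fold change −0.66 ± 0.14, SE; limma adjusted p = 7.3e-04), and 21.2% of its exonic bases overlap Mlx on the other strand. Psme3ip1 rose from 956, 1085 and 966 to 1255, 1230 and 1165 (0.28 ± 0.063, adjusted p = 0.0011). Psma5-ps, at 6.2 to 24.2 normalized counts, did not pass. Counting 3 values of each group apart in place of the test, 18 members were higher and 4 lower, beside 26.8% and 25.3% of all tested genes.

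A list of 8 genes changed in both directions. It held regulators of proteasome genes, factors that act on the proteasome, and Maf1, a repressor of RNA polymerase III, which the counts and median include. In limma and edgeR 5 were higher and 1 lower, in DESeq2 4 and 1, with a list median of 0.19. Of all tested genes limma called 22.7% higher and 21.0% lower, with a median of −0.01. Nfe2l3, a transcription factor of the family that activates proteasome genes, went from 294, 314 and 275 to 516, 532 and 511 with no overlap (log2 fold change 0.82 ± 0.084, SE; limma adjusted p = 1.7e-07). Nfe2l1, the family member best known for restoring proteasome genes when activity is blocked, fell by 0.14 on the log2 scale, and Nfe2l2, the oxidative stress factor, rose by 0.13. Zfand5, a proteasome-binding protein (0.44), Ngly1, the enzyme that processes Nfe2l1 (0.30), and Maf1 (0.16) rose. Ddi2, the protease that cleaves Nfe2l1, and Akirin2, which carries proteasomes into the nucleus, did not pass.

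Of 4 genes of ubiquitin and its activation, 2 were higher and none lower in limma, edgeR and DESeq2, and none had an unadjusted p under 0.05 for a fall. Over all 13210 tested genes limma called 22.7% higher and 21.0% lower, and 6651 had an unadjusted p under 0.05. The polyubiquitin gene Ubb rose from 14588, 14572 and 14368 to 17735, 19323 and 17829 (log2 fold change 0.33 ± 0.044, SE; limma adjusted p = 3.8e-06), and the activating enzyme Uba6 (0.24) also rose. Uba1 and Rps27a did not pass. None of 8 genes that deliver substrates, such as the unfoldase Vcp (0.05) and the shuttle Rad23b (−0.0045), passed in limma, edgeR or DESeq2, and none had an unadjusted p under 0.05 in any of them. Their log2 fold changes ran from −0.0045 to 0.11.

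**Figure D4:**
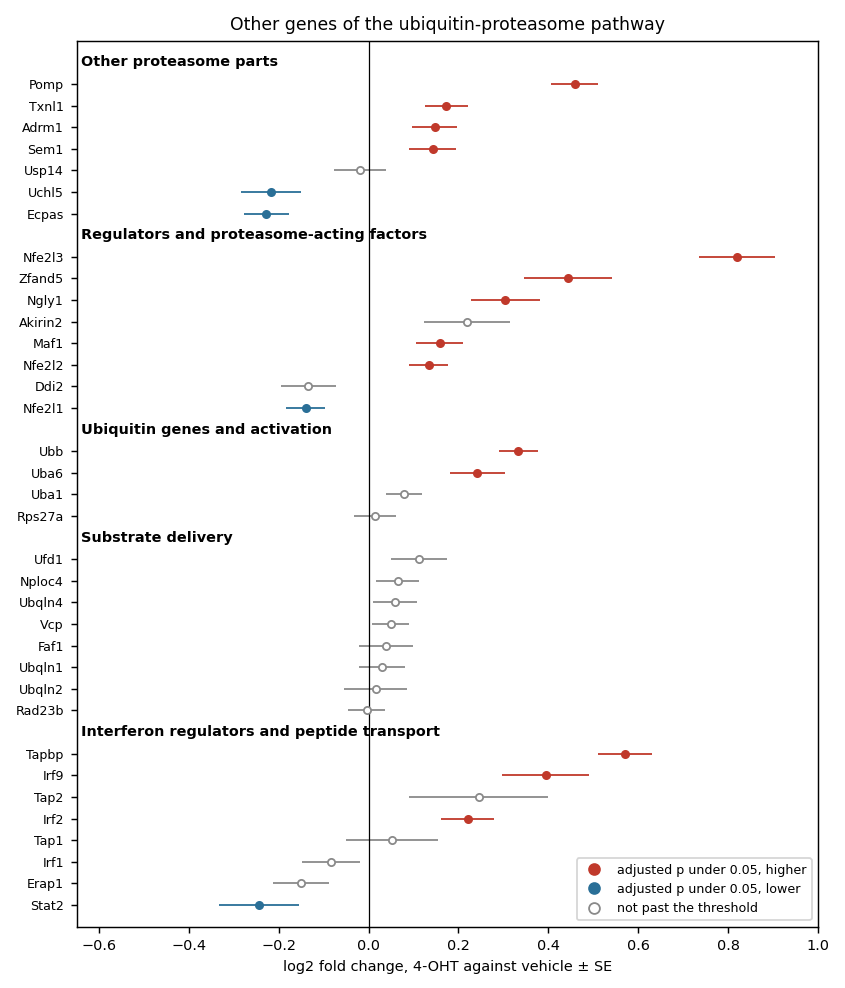
Log2 fold change ± SE, 4-OHT against vehicle (x axis), of related genes grouped by list (y axis), with filled points past the threshold in limma. The lists hold other genes of the ubiquitin-proteasome pathway, genes of interferon signalling and peptide loading, and Maf1, a repressor of RNA polymerase III. Nfe2l3 at 0.82, Tapbp at 0.57 and Pomp at 0.46 are the largest rises shown, and the substrate delivery genes stay between −0.0045 and 0.11.

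Across 17 alternative settings, 5 of the 17 called members passed in each: Psmd8, Psme2, Psme3ip1, Psmb9 and Psmc3ip. Psmb1 and Psmb10 passed in 16, the exception being the fit without 4-OHT replicates 2 and 3, which left a single 4-OHT library assumed to vary like the vehicle libraries. The rises of Psmc3 and Psme4, at 0.12 and 0.13, each passed in 7. No called member changed direction in any of them.

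**Figure D5:**
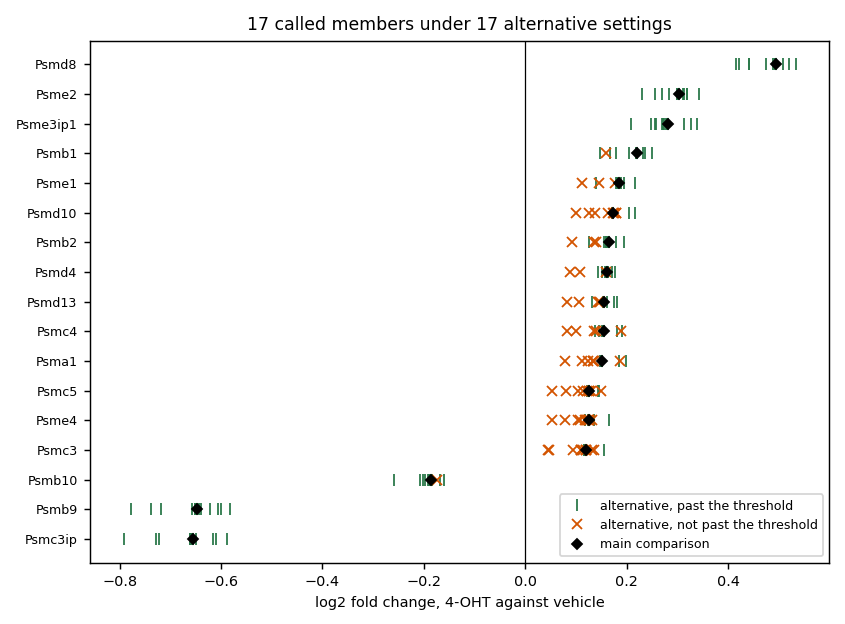
Log2 fold change of the 17 called members (y axis) in the main comparison (black diamonds) and in 17 alternative settings (x axis), with green bars where the alternative passed the threshold and orange crosses where it did not. Psmd8, Psme2, Psme3ip1, Psmb9 and Psmc3ip have bars alone, while the smaller rises carry crosses.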

How the data were processed

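RNA-seq was made from 6 organoid libraries. The deposited values are normalized counts, a signal scaled between libraries by the authors, whose processing notes name STAR, DESeq2 and build GRCm39 (mm39). The counting tool, annotation and strand setting are not given in the sources used here. Whole reads were recovered: 100% of values were whole multiples of 1 read within 0.1. Replicates differed by more than counting noise (chi-square per degree of freedom 3.55 to 6.41), so none was taken for a copy.

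Rows with a mean of at least 10 were tested on log2(normalized count + 1) with limma 3.58.1 (trend, two-sided, Benjamini-Hochberg over 13210 rows, R 4.3.3), and a fold change on this scale understates that of scarce genes. Intervals are 95%. Whole reads were also tested with edgeR 4.0.16 and DESeq2 1.42.0 as alternatives. The test was checked on simulated data whose changes were larger than those of any member, which leaves changes of the members' size unchecked. Levels per length used the median GENCODE transcript length in GRCm38, which may differ from the authors' annotation.

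Members and lists were chosen with earlier results of these data known. Some genes of the lists are not reported here, and list counts and sums leave them out. Values in every library were given for the immunoproteasome and catalytic genes and, in each other class, for the 2 largest called rises and falls. Promoters came from RefSeq by symbol, 43 of 53 matching.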

Additional observations from a re-analysis of the deposited data

How the results depend on the processing

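The settings RPM and “without 4-OHT replicates 2 and 3” were added after seeing the data. Of 848 values of single members under the alternatives, called members kept direction and call in 224 and direction alone in 65. Members not called kept both in 510, gained a call in 20 and changed sign in 29. Of all 13210 tested genes, 5692 were called under quantile normalization, 6007 under RPM and 4939 to 5630 with 1 library left out. Members called were 11 under quantile normalization, 8 under RPM, 5 without 4-OHT replicates 2 and 3, and 9 to 26 with 1 library left out. Over all genes 3569 were called without those 4-OHT replicates, with fewer libraries. Core genes called were 1 under RPM, 0 without 4-OHT replicates 2 and 3, and 1 to 12 with 1 library left out. Regulatory genes called were 1 under quantile normalization, RPM and the loss of 4-OHT replicates 2 and 3, and 2 to 7 with 1 library left out. Immunoproteasome genes called were 2 without 4-OHT replicates 2 and 3. Chaperones called were 0 with no filter on low values, with DESeq2 and without 4-OHT replicates 2 and 3, and 0 to 1 with 1 library left out. The chaperone called was Psmd10, higher, except without 4-OHT replicate 1 (Psmg3, lower) and under RPM (Psmg2, lower).

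Class medians under quantile normalization were 0.063 (core) and 0.045 (regulatory), and under RPM 0.034 (core), 0.11 (immunoproteasome), 0.024 (regulatory) and −0.15 (chaperones). The chaperone median was −0.019 without 4-OHT replicates 2 and 3. The immunoproteasome median turned to −0.00017 with a mean of at least 50, which leaves out Psmb8. With 1 library left out the medians ran from 0.086 to 0.16 (core), −0.0090 to 0.22 (immunoproteasome) and −0.13 to −0.030 (chaperones). Members not called changed sign as follows, and the cause was not tested. Under quantile normalization the log2 fold changes were Psmc1 −0.019 and Psmd1 −0.013. Under RPM they were Psmc1 −0.016, Psmc6 −0.00038, Psmd1 −0.038, Psmd5 −0.010 and Psmf1 −0.047. Without 4-OHT replicates 2 and 3 they were Psmc6 −0.057, Psmd5 −0.019, Psmd9 0.060, Psme3 0.022 and Psmg3 0.074. With 1 library left out they ran over Psmb8 −0.0090 to 0.46, Psmc2 −0.036 to 0.0031, Psmd11 −0.050 to 0.025, Psmd3 −0.029 to 0.0099, Psmd7 −0.031 to 0.015, Psmd9 −0.052 to 0.021, Psme3 −0.047 to 0.026 and Psmf1 −0.030 to 0.11.

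Replicate numbers are not said to pair libraries, and deviations of same-numbered libraries correlated at −0.0075, 0.030 and −0.020. With the replicate block 14 members were called, 11 higher and 3 lower, against 17 without it. Read depth limits Psmb8, at 37 to 59 reads a library, and Psma5-ps, at 6 to 20.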
